A study of Mus musculus with 10 samples.

Results

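The genes described here are the rows named Zfp600 to Zfp999, with or without a trailing letter, in polyA RNA sequencing of spermatogenic cells from mouse testes at postnatal day 18. There were 146 such rows among 23420 gene rows, and 208 other rows were named Zfp with a number. The series holds 5 libraries labelled Ino80WT and 5 labelled Ino80cKO, all from mice of mixed background. In Ino80cKO, Ino80, the ATPase of a chromatin remodelling complex, was deleted in the testis with Stra8-Cre, a recombinase driven by a promoter active in male germ cells. Tubules were digested with enzymes and the cells passed through a strainer. The sources used here do not say whether Ino80WT mice carry Cre or floxed alleles or whether each library came from its own animal, and p-values cover only variation among the libraries, part of which may be technical. The comparison asks which zinc finger transcripts differ when Ino80 is deleted.

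Zinc finger proteins of this type bind DNA through tandem C2H2 fingers, small folds that hold a zinc ion between a pair of cysteines and a pair of histidines. In many of them a KRAB box at the start of the protein binds the scaffold protein TRIM28, which brings in the histone methyltransferase SETDB1, HP1 proteins and other silencing factors. KRAB zinc finger genes lie in runs that arose by duplication, and several of the proteins are known to silence retrotransposons in embryos and germ cells. Of the 146 genes, 143 had an annotated coding sequence in GENCODE M21. In their translations a pattern for the KRAB A box was found in 91 (63.6%), and the number of C2H2 fingers matched ran from 0 to 33 with a median of 10. The pattern can miss divergent boxes, and 9 proteins had no finger of the spacing searched.

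All 146 genes were placed in mm10 through RefSeq (GRCm38.p6), 143 by their current and 3 by an older symbol. Chromosome 7 held 32 of them, chromosome 17 held 21, chromosome 8 held 17, chromosome 13 held 12 and the X chromosome held 1. Runs of 3 or more genes, each starting within 1 Mb of the next, numbered 14 and held 79 of the genes. A gene overlapped another annotated gene in 60 cases. Where it does, and where a close copy exists, the count is uncertain, because the kit marks strand but the strand setting of the counting is not known here, and reads aligned to several places were not counted.

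The promoter windows below belong to 3 of the genes described below, Zfp956, Zfp784 and Zfp882, and to a pair of near copies that changed together. They are shown from 250 bases before to 30 bases after the annotated start, 5′ to 3′ on the gene's strand, from RefSeq (GRCm38.p6). Capitals mark matches to AANATGGC, the core recognised by YY1, a DNA-binding partner of the INO80 complex, or to AACNGTT, a site of the MYB family, each searched on both strands.
Zfp956, chr6:47953140-47953419, plus strand: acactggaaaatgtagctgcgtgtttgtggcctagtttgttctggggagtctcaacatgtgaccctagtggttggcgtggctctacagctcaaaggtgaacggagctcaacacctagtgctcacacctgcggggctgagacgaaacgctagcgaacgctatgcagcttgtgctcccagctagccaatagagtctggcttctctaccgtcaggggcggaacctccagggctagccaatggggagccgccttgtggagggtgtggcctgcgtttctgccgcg
Zfp784, chr7:5038417-5038696, minus strand: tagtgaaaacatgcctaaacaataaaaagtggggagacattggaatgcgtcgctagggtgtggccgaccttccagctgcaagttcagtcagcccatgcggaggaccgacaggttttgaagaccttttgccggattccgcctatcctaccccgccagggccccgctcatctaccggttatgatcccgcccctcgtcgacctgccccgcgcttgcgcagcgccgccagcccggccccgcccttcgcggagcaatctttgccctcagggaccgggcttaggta
Zfp955a, chr17:33255116-33255395, minus strand: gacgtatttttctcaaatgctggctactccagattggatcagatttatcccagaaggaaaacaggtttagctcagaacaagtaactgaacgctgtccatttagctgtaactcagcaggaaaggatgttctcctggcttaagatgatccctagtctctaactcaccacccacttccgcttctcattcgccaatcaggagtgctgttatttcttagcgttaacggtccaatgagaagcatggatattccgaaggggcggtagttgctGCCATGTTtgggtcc
Zfp882, chr8:71908356-71908635, plus strand: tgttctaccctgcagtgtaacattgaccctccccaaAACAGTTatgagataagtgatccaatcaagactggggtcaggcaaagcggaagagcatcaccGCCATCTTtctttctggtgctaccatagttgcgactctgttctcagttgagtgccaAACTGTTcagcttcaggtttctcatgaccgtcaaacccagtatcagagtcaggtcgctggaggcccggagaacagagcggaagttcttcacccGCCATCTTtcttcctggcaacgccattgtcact
Zfp955b (chr17:33289294-33289573, plus strand) had the same window as Zfp955a, with 300 of 300 bases identical over the full window, which runs to 50 bases after the start. Zfp955a and Zfp955b held 1 AANATGGC match and no AACNGTT match in the stretch shown, Zfp882 held 2 of each, and Zfp956 and Zfp784 held neither.

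Windows of 300 bases were in the table for 125 of the 146 genes, 153 windows in all. AANATGGC was found in 23 of the 153 (15%), against 6.05% of all 32851 windows in the table and 7.55% of the 14207 windows of genes tested. Among genes called higher it was in 3 of 23 windows (13%), among genes called lower in 6 of 35 (17.1%) and among genes not called in 14 of 88 (15.9%). AACNGTT was found in 8 of the 153 windows (5.23%), against 4.45% of all windows and 3.37% of those of genes tested. It was in 1 of 23 windows of genes called higher, 0 of 35 of genes called lower and 7 of 88 of genes not called. No match of one motif overlaps a match of the other in the windows shown. A match is a run of letters and not a measured binding site.

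Each library held between 16750609 and 23700094 gene counts. Levels are given as CPM, a gene's count relative to its library's total after scaling by TMM factors. The limit of 3 counts corresponds to 0.127 to 0.179 CPM of the unscaled totals and covers counting error only. Ino80 itself had 75.8 to 110 CPM in Ino80WT and 94.4 to 97.4 CPM in Ino80cKO (log2 fold change 0.02 ± 0.09, adjusted p = 0.889; here and below ± after a log2 fold change is the SE and after a CPM mean the SD, n = 5). The deleted exons are not known here, so this gene-level count does not check the labels. Germ cell transcripts were present together with those of other testis cells. All 20 markers of pachytene and later spermatocytes were lower in Ino80cKO, with a summed level of 5382 to 8918 CPM in Ino80WT, highest in Ino80WT 3, and 2316 to 3596 CPM in Ino80cKO, lowest in Ino80cKO 3. Of 15 Sertoli cell markers 7 were higher and none lower, with sums of 4156 to 6465 and 5938 to 8051 CPM, lowest in Ino80WT 3 and highest in Ino80cKO 3. Of 11 peritubular and stromal markers 7 were higher (1157 to 1411 against 1374 to 2012 CPM), and of 14 leukocyte markers 8 were higher and 1 lower (30 to 49.5 against 70.3 to 116 CPM). None of these markers was at 0. In such mixed cells, fewer cells of a type and less RNA per cell cannot be told apart.

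Zinc finger genes of this range moved in both directions and by small amounts. Of 138 that passed the count filter, 25 rose and 27 fell in Ino80cKO and 86 did not pass the test (edgeR's quasi-likelihood test, Benjamini-Hochberg adjusted over all 15265 genes tested, n = 5 libraries per group). The called share was 37.7%, against 45.9% of all genes tested. The share higher was 18.1% against 18.3%, and the share lower was 19.6% against 27.6%. The Zfp genes were at lower levels, with a median of 17.5 CPM against 27.4 CPM for all genes. Below 10 CPM 24.5% of them were called, against 30.8% of all genes at that level. From 10 to 30 CPM it was 34.7% against 48.1%, and at 30 CPM or more 57.5% against 55.1%. Only Zfp956 changed by 2-fold or more: 1 of 138 was called lower at that size, against 7.72% of all genes, and none was called higher, against 0.740%. The median change of the called genes was 1.31-fold in each direction.

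Over the 138 genes the median log2 fold change (Ino80cKO over Ino80WT) was 0.05, with a middle range from -0.23 to 0.26 and extremes of -1.19 and 0.74. The same values for all genes tested were 0.02, -0.33 to 0.29, and -4.12 and 4.74. The other 204 tested Zfp rows had 34 higher, 46 lower and a median of 0.01. The CPM ranges of both groups did not overlap for 30 of the 138 (21.7%), 16 higher and 14 lower, against 32.0% of all genes (9.96% higher and 22.0% lower).

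The balance of directions depended on the scaling. The TMM factors differed by group, at 0.8948 to 1.006 in Ino80WT and 1.051 to 1.088 in Ino80cKO. With library totals in place of TMM factors 49 were higher and 11 lower and the median was 0.22, while the median of all genes moved from 0.02 to 0.19. RLE factors gave 31 higher and 18 lower, DESeq2 and a minimum count of 30 each gave 32 higher and 20 lower. Leaving out 1 library gave 14 to 26 higher and 17 to 28 lower. The higher count was 16, 14, 16 and 16 without Ino80cKO 1, 2, 3 and 4, and the lower count was 17 without Ino80cKO 3.

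**Figure D1:**
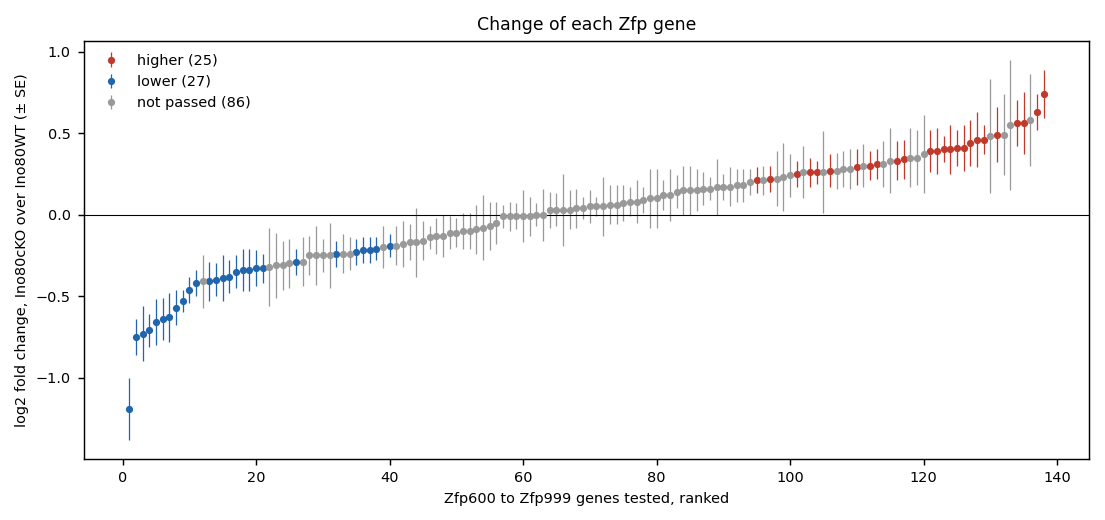
Log2 fold change (Ino80cKO over Ino80WT, vertical axis) of the 138 tested genes in rank order (horizontal axis), with bars of 1 SE, red for genes called higher, blue for lower and grey for genes that did not pass. A single gene, Zfp956 at -1.19, lies beyond a 2-fold change.

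The 8 largest falls among well-detected genes whose groups did not overlap were Zfp956, Zfp784, Zfp955a, Zfp654, Zfp955b, Zfp938, Zfp639 and Zfp830. Zfp956 (mm10, chr6:47953390-47965300) stood at 75.5, 87.7, 150, 71.8 and 94.9 CPM in Ino80WT 1 to 5 and 38.5, 40, 33.3, 48.6 and 50.6 CPM in Ino80cKO 1 to 5. Every Ino80cKO library was below every Ino80WT library, and Ino80WT 3 was far above the others. It fell from 95.9 ± 31.5 to 42.2 ± 7.24 CPM (SD, n = 5), 2.27-fold lower (log2 fold change -1.19 ± 0.19, adjusted p = 0.000516). Per kilobase of exon its level in Ino80WT was the highest of the 138 genes, 32.3 CPM, and in Ino80cKO it was 14.2 CPM. Its annotated first 1160 bases are shared with Zfp783, a gene listed as a long noncoding RNA, which had 14.3 ± 0.894 and 12.7 ± 1.65 CPM and did not pass (log2 fold change -0.17 ± 0.11, adjusted p = 0.213).

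Zfp784 (chr7:5034446-5038446), a short protein with 6 fingers and no KRAB match, had 7.74, 7.35, 8.53, 7.97 and 8.46 CPM in Ino80WT 1 to 5 and 5.71, 4.54, 4.35, 4.52 and 4.59 CPM in Ino80cKO 1 to 5. The groups stood well apart, with Ino80cKO 1 above the other libraries of its group. The fall was 1.69-fold (log2 fold change -0.75 ± 0.11, adjusted p = 0.000279). Zfp654 (chr16:64780347-64851937) had 135, 162, 234, 163 and 216 CPM in Ino80WT 1 to 5 and 107, 109, 109, 128 and 122 CPM in Ino80cKO 1 to 5. Its Ino80WT libraries spread widely, with replicates 3 and 5 highest, and all lay above the Ino80cKO libraries (1.59-fold lower, log2 fold change -0.66 ± 0.14, adjusted p = 0.00194). Per kilobase of exon it ranked just after Zfp956 in Ino80WT, with 29.1 CPM. In Ino80cKO it had 18.4 CPM, above the 14.2 CPM of Zfp956.

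Zfp955a (chr17:33239507-33255168) and Zfp955b (chr17:33289521-33307239) are neighbours 34.4 kb apart that share 75.1% of their 9-residue protein stretches and, as shown above, their promoter sequence. Zfp955a had 29.1, 30.4, 36.5, 30.9 and 37.9 CPM in Ino80WT 1 to 5 and 18.5, 18.5, 19, 22.1 and 22.2 CPM in Ino80cKO 1 to 5. Zfp955b had 18.6, 22.3, 29.8, 22 and 29.4 CPM in Ino80WT 1 to 5 and 15.6, 15.6, 15, 15.6 and 16.6 CPM in Ino80cKO 1 to 5. Both were highest in Ino80WT 3 and 5, and in neither did the groups overlap. Zfp955a fell 1.64-fold (log2 fold change -0.71 ± 0.10, adjusted p = 0.00018) and Zfp955b 1.56-fold (log2 fold change -0.64 ± 0.13, adjusted p = 0.00149). Reads that align to both copies were not counted, so each level is uncertain, and how many reads this concerns is not known here. Whether the copies are independent measurements was not tested.

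Among the remaining falls, Zfp938 (chr10:82224850-82241280), a KRAB gene, had 11.6, 10.3, 12.3, 10.4 and 14.4 CPM in Ino80WT 1 to 5 and 7, 7.89, 8.44, 8.2 and 8.2 CPM in Ino80cKO 1 to 5. Its Ino80cKO libraries lay close together below all Ino80WT libraries (1.48-fold lower, log2 fold change -0.57 ± 0.11, adjusted p = 0.00183). Zfp639 (chr3:32510264-32520833) had 68.7, 62.1, 68.6, 61.3 and 71.9 CPM in Ino80WT 1 to 5 and 47.2, 46.7, 42.3, 46.7 and 47.5 CPM in Ino80cKO 1 to 5, and it had the smallest adjusted p of the group (1.44-fold lower, log2 fold change -0.53 ± 0.07, adjusted p = 0.000128). Zfp830 (chr11:82764345-82767622), a nuclear protein linked to pre-mRNA splicing, fell from 38.5 ± 4.11 to 28 ± 1.34 CPM (1.37-fold, log2 fold change -0.46 ± 0.08, adjusted p = 0.00101), again without overlap of the groups. Its annotated position overlaps another gene, Cct6b, so its count is uncertain for the reason given above. These 8 calls held in all 17 alternative settings.

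Zfp661, named here after its values were seen, fell by a similar amount (1.66-fold, log2 fold change -0.73 ± 0.17, adjusted p = 0.0039) but its groups overlapped, with 9.62, 15.2, 21.2, 14.2 and 17.1 CPM in Ino80WT 1 to 5 and 9.59, 9.91, 8.99, 9.43 and 8.79 CPM in Ino80cKO 1 to 5. Ino80WT 1 was as low as the Ino80cKO libraries.

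**Figure D2:**
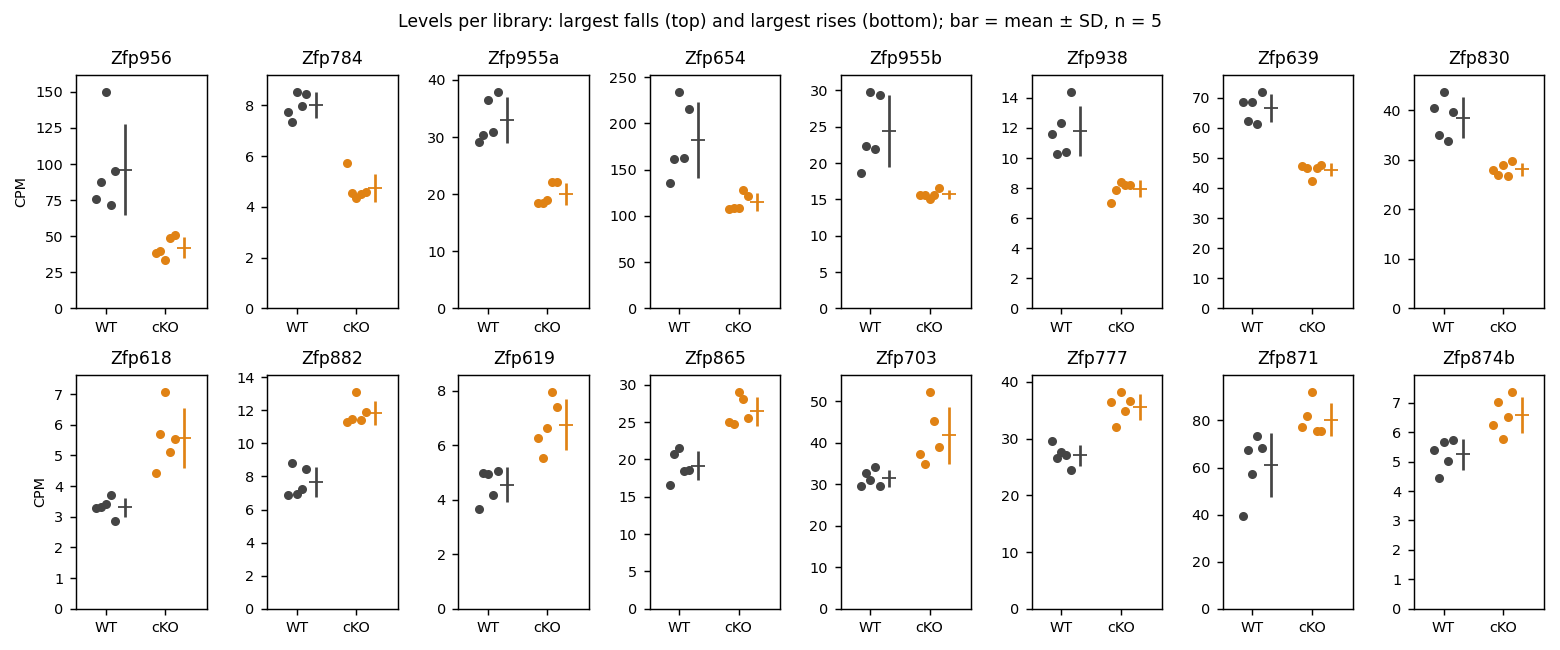
CPM (vertical axes, each from 0) of the 8 largest falls (top row) and 8 largest rises (bottom row) among called genes whose groups do not overlap, in the 5 Ino80WT and 5 Ino80cKO libraries, with the mean ± SD beside the points. In each panel the groups do not overlap, and for Zfp956 Ino80WT 3 stands at 150 CPM above the other libraries.

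Among well-detected genes whose groups did not overlap, the 8 largest rises were those of Zfp618, Zfp882, Zfp619, Zfp865, Zfp703, Zfp777, Zfp871 and Zfp874b. Zfp618 (chr4:62965555-63139709), a partner of the methylated-DNA reader UHRF2, had 3.27, 3.32, 3.4, 3.72 and 2.86 CPM in Ino80WT 1 to 5 and 4.42, 5.68, 7.06, 5.11 and 5.53 CPM in Ino80cKO 1 to 5. Ino80cKO 3 was the highest library and each Ino80cKO library exceeded each Ino80WT library. It rose 1.67-fold (log2 fold change 0.74 ± 0.15, adjusted p = 0.00153). Zfp882 (chr8:71908606-71918851), a KRAB gene with 13 fingers, had 6.86, 8.81, 6.93, 7.25 and 8.46 CPM in Ino80WT 1 to 5 and 11.3, 11.5, 13.1, 11.4 and 11.9 CPM in Ino80cKO 1 to 5. It rose 1.55-fold (log2 fold change 0.63 ± 0.11, adjusted p = 0.000549), with a gap between the groups larger than the spread within either.

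Zfp619 (chr7:39517766-39540415), which has 33 fingers, the most in the group, had 3.65, 4.98, 4.95, 4.16 and 5.06 CPM in Ino80WT 1 to 5 and 6.26, 5.55, 6.62, 7.95 and 7.41 CPM in Ino80cKO 1 to 5. The lowest Ino80cKO library was just above the highest Ino80WT library (1.48-fold higher, log2 fold change 0.56 ± 0.14, adjusted p = 0.00617). Zfp865 rose from 19.2 ± 1.95 to 26.5 ± 1.96 CPM (1.38-fold, log2 fold change 0.46 ± 0.09, adjusted p = 0.00155), and Zfp777, a KRAB gene, from 27 ± 1.86 to 35.6 ± 2.31 CPM (1.32-fold, log2 fold change 0.40 ± 0.08, adjusted p = 0.00141). Zfp703, a transcriptional corepressor of the NET family, rose from 31.4 ± 2.01 to 41.8 ± 6.94 CPM (1.33-fold, log2 fold change 0.41 ± 0.11, adjusted p = 0.00835), with Ino80cKO 3 highest. The calls of these 6 genes held in all 17 alternatives.

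Zfp871 and Zfp874b rose by less secure amounts. Zfp871 had 39.4, 67.4, 57.2, 73.4 and 68.2 CPM in Ino80WT 1 to 5 and 77.1, 81.7, 92, 75.3 and 75.3 CPM in Ino80cKO 1 to 5. Ino80WT 1 was far below its group, and the call (1.31-fold higher, log2 fold change 0.39 ± 0.14, adjusted p = 0.0383) was lost in 4 of the 17 alternatives, without Ino80WT 3 and without Ino80cKO 1, 2 or 3 (adjusted p 0.0568 to 0.0718). Zfp874b rose from 5.25 ± 0.533 to 6.59 ± 0.62 CPM (1.26-fold, log2 fold change 0.33 ± 0.12, adjusted p = 0.0382), a call lost in 8, among them without Ino80WT 2 or 4 and without Ino80cKO 1, 2, 4 or 5 (adjusted p 0.0554 to 0.0913). Its near copy Zfp874a, which shares 65.3% of its 9-residue protein stretches, had 8.38 ± 0.903 and 9.39 ± 1.1 CPM and did not pass (log2 fold change 0.17 ± 0.12, adjusted p = 0.263).

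The libraries in which the called genes were highest or lowest are given beside the sums of cell type markers. Of the 27 genes called lower, 14 were highest in Ino80WT 3 and 10 in Ino80WT 5, the libraries with the highest spermatocyte marker sums (8918 and 7541 CPM), and 9 were lowest in Ino80cKO 3. Of the 25 called higher, 15 were highest in Ino80cKO 3, which also had the highest Sertoli marker sum. The same 25 were lowest in Ino80WT 1 and Ino80WT 5 (8 genes each), then Ino80WT 3 (6), while within Ino80WT the Sertoli sum was highest in Ino80WT 1 (6465 CPM) and lowest in Ino80WT 3 (4156 CPM). Summed over the 27 lower genes, the level was 1179 to 1576 CPM in Ino80WT and 943 to 1042 CPM in Ino80cKO. Summed over the 25 higher genes it was 575 to 727 and 793 to 943 CPM. Both sets were chosen by their calls in these same libraries. The separation of the groups in their sums, and which group held the extremes, largely follow from that choice. The same counts were not made over all genes called, so they are not shown to be particular to the Zfp genes. Ino80WT 3 also had the lowest TMM factor of the libraries, 0.8948. The part of the cell makeup and of the scaling in these results was not tested.

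**Figure D3:**
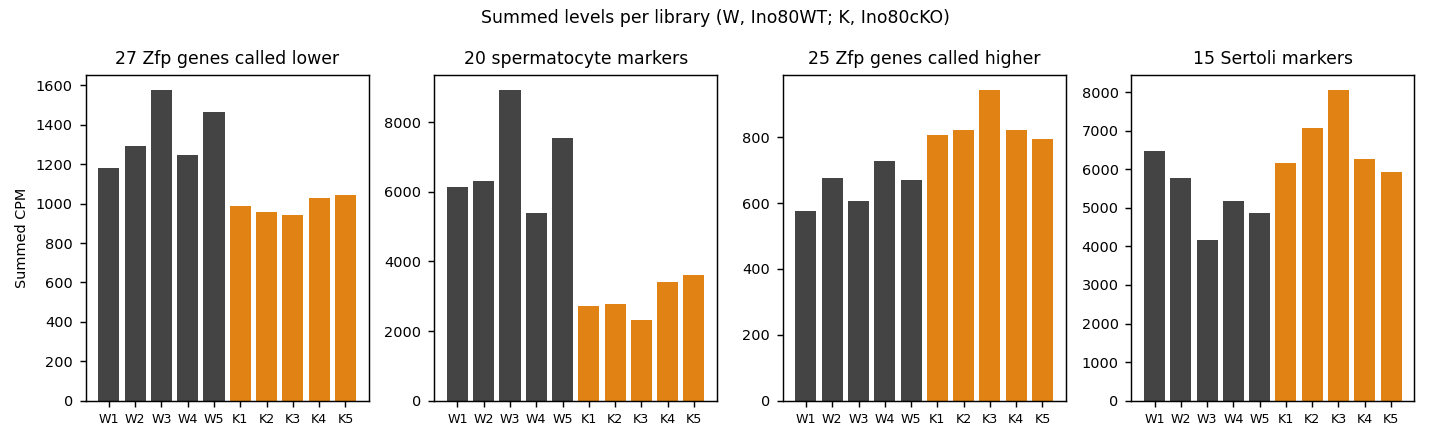
Summed CPM per library (bars from 0; W1 to W5 are Ino80WT 1 to 5, K1 to K5 are Ino80cKO 1 to 5) of the 27 genes called lower, of 20 spermatocyte markers, of the 25 genes called higher and of 15 Sertoli markers. W3 is highest and K3 lowest in the first pair of panels, and K3 is highest in the other pair. The Zfp genes were chosen by their calls in these libraries, so the separation of the groups in their sums follows from that choice.

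Genes were also described by KRAB match. Of 89 tested genes with the match, 11 rose and 13 fell (27%), and of 46 without it 14 rose and 14 fell (60.9%), against 45.9% of all genes. The KRAB genes were also at lower levels, with a median of 12.6 CPM against 39 CPM without the match and 27.4 CPM for all genes tested. The share of calls is therefore given by level as well, a split chosen after the data were seen, and the difference between the classes was not tested. Because the pattern can miss divergent boxes, the genes without a match may include KRAB genes.

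Below 10 CPM, 10 of 40 KRAB genes were called (25%), against 30.8% of all genes at that level, and 2 of 7 genes without a match (28.6%). From 10 to 30 CPM, 10 of 38 were called (26.3%), 9 of them lower, against 48.1%, while 7 of the 10 genes without a match were called, 6 of them higher. At 30 CPM or more, 4 of 11 KRAB genes (36.4%) and 19 of 29 genes without a match (65.5%) were called, against 55.1%. The median size of the log2 change, called or not, was 0.22 for KRAB genes, 0.27 for genes without a match and 0.30 for all genes. By number of fingers, 12 of 21 genes with 0 to 5 were called (57.1%) and 21 of 48 with 6 to 10 (43.8%). With 11 to 15 fingers 9 of 41 were called (22%), and with 16 or more 10 of 25 (40%). The share over all genes was 45.9%. These classes were not matched for level, and differences between them were not tested.

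**Figure D4:**
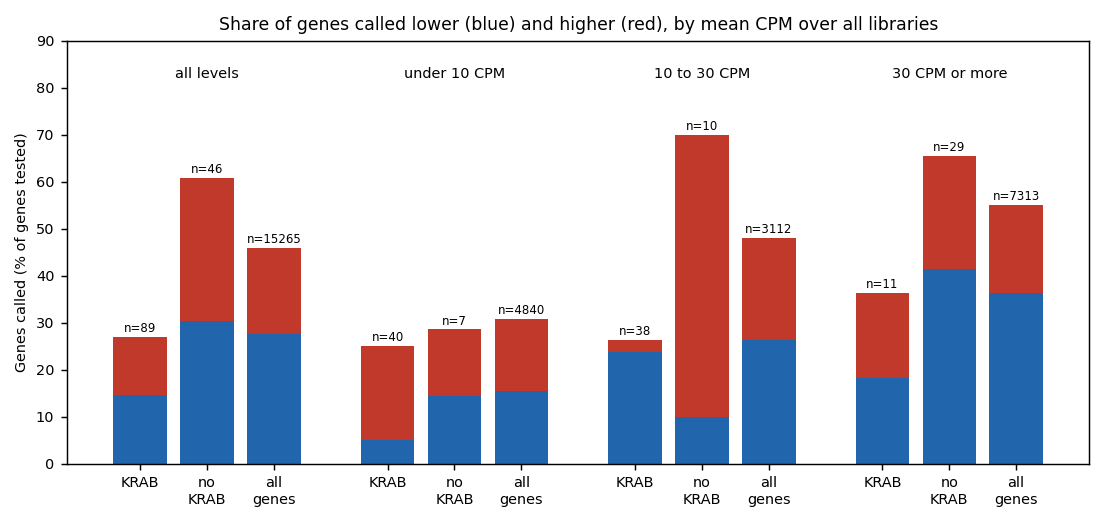
Percentage of tested genes called lower (blue) and higher (red), stacked from 0, for genes with a KRAB match, genes without it and all genes tested, over all levels and in 3 ranges of mean CPM, with the number of genes above each bar. KRAB genes have the smallest called share in each range.

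Runs of neighbouring genes held calls of 1 or both directions. Of the 14 runs, 6 held called genes of both directions, 4 held only rises, 3 held only falls and 1 had no call. Over all genes tested 18.3% were higher and 27.6% lower. Whether the runs differ from equally large sets of other genes was not tested. Of the 7 runs with 1 direction, 5 had a single called gene, and 2 had several, all lower. In the run on chromosome 6, Zfp956 fell, Zfp777 rose, and Zfp746, the Parkin substrate PARIS, which lies 12.4 kb from Zfp777, fell from 64.4 ± 5.89 to 55.4 ± 2.84 CPM (1.16-fold, log2 fold change -0.22 ± 0.08, adjusted p = 0.0337). The call of Zfp746 was lost in 13 of 17 alternatives, among them without Ino80WT 2, 3 or 5 and without Ino80cKO 2, 3 or 4 (adjusted p 0.0512 to 0.11).

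On chromosome 7, a run of 3 genes within 0.123 Mb had all members called. Zfp628, a partner of TAF4b required for spermiogenesis, rose from 16.4 ± 1.49 to 19.7 ± 2.15 CPM (1.2-fold, log2 fold change 0.27 ± 0.10, adjusted p = 0.0433), a call lost in 6 alternatives, among them without Ino80WT 4 or 5 and without Ino80cKO 1, 4 or 5 (adjusted p 0.0647 to 0.102). Zfp865 rose as well, while Zfp784, 1.22 kb away from it, fell. In the run on chromosome 17 that holds Zfp955a and Zfp955b, Zfp871 and Zfp763 were called higher and 4 genes did not pass. The other run on that chromosome, with 11 KRAB genes over 1.48 Mb, had a single call, Zfp760 (1.31-fold higher, log2 fold change 0.39 ± 0.13, adjusted p = 0.0275), and a median log2 fold change of 0.00. The call of Zfp760 was lost in 4 alternatives, among them without Ino80WT 2 or 3 and without Ino80cKO 3 (adjusted p 0.05 to 0.066).

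The genes with the smallest adjusted p in the remaining runs changed by small amounts. Zfp658 on chromosome 7 rose 1.41-fold (log2 fold change 0.49 ± 0.17, adjusted p = 0.0347), Zfp787 1.16-fold (log2 fold change 0.22 ± 0.08, adjusted p = 0.0451) and Zfp963 on chromosome 8 1.33-fold (log2 fold change 0.41 ± 0.14, adjusted p = 0.0326). These calls were lost in 7, 10 and 6 alternatives. Zfp658 lost its call without Ino80WT 3 or 5 and without Ino80cKO 2, 4 or 5 (adjusted p 0.0673 to 0.0802). Zfp787 lost it without Ino80WT 2, 3, 4 or 5 and without Ino80cKO 1, 2, 3, 4 or 5 (adjusted p 0.0523 to 0.106), and Zfp963 lost it without Ino80WT 3 or 5 and without Ino80cKO 1, 2 or 3 (adjusted p 0.0638 to 0.0834). Zfp623 on chromosome 15 rose 1.24-fold (log2 fold change 0.31 ± 0.09, adjusted p = 0.0136) in all 17. Zfp771 on chromosome 7 fell 1.26-fold (log2 fold change -0.33 ± 0.11, adjusted p = 0.0255), a call lost in 8, among them without Ino80WT 1 or 2 and without Ino80cKO 1, 2 or 3 (adjusted p 0.0524 to 0.0681). The smaller run on chromosome 13 had no call. Zfp808 there had 15.2, 17.9, 19.9, 22.2 and 27.9 CPM in Ino80WT 1 to 5 and 19.8, 25.6, 34.6, 22.6 and 28.8 CPM in Ino80cKO 1 to 5 (log2 fold change 0.35 ± 0.18, adjusted p = 0.118), with overlapping groups, and it shares 71.5% of its 9-residue stretches with Zfp934 (log2 fold change 0.15 ± 0.15, adjusted p = 0.435).

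**Figure D5:**
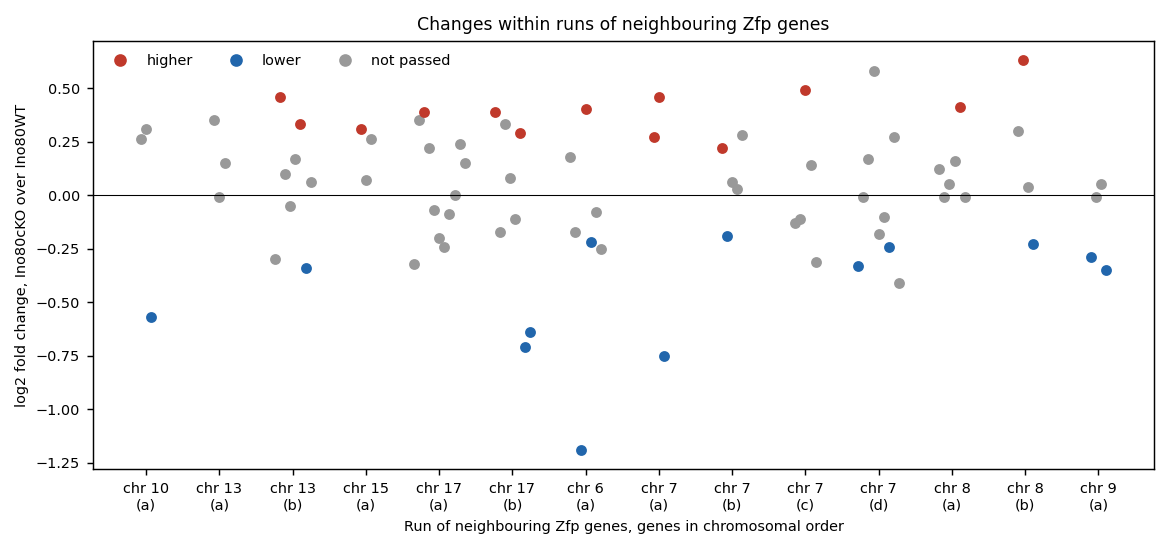
Log2 fold change (Ino80cKO over Ino80WT, vertical axis) of the genes in each of the 14 runs of neighbouring genes, drawn in chromosomal order within a run (horizontal axis), red for genes called higher, blue for lower and grey for not passed. In 6 runs red and blue points stand together, as on chromosome 6, where Zfp956 (-1.19) and Zfp777 (0.40) are neighbours.

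The next genes are known for silencing retroviruses or retrotransposons or for binding TRIM28. Zfp809, which recognises the primer binding site of murine leukaemia virus, had 29.7, 33.7, 30.8, 32.5 and 39.4 CPM in Ino80WT 1 to 5 and 36, 34.4, 38.8, 33.4 and 29.5 CPM in Ino80cKO 1 to 5. The groups overlapped over most of their range (log2 fold change 0.05 ± 0.10, adjusted p = 0.677). Zfp932, which binds endogenous retroviruses, had 26.5 ± 4.12 and 24.7 ± 2.24 CPM (log2 fold change -0.10 ± 0.11, adjusted p = 0.448). Zfp708, which binds a retrotransposon class in oocytes, had 5.72, 3.62, 4.62, 6 and 7.03 CPM in Ino80WT 1 to 5 and 6.07, 7.49, 8.69, 7.66 and 7.06 CPM in Ino80cKO 1 to 5. Most of its Ino80cKO values exceeded those of Ino80WT, and it rose 1.37-fold (log2 fold change 0.46 ± 0.17, adjusted p = 0.0443), but the groups overlapped and the call was lost in 8 alternatives, among them without Ino80WT 2 or 3 and without Ino80cKO 2, 3, 4 or 5 (adjusted p 0.0545 to 0.0933). Zfp819, a KRAB protein that binds TRIM28 in embryonic stem cells, was at 2.72 ± 0.451 and 2.2 ± 0.562 CPM (log2 fold change -0.31 ± 0.20, adjusted p = 0.218).

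Zfp711 (mm10, chrX:112600526-112635070) was the only member on the X chromosome, where genes are silenced in pachytene spermatocytes. It is a relative of Zfx that binds promoters together with the demethylase PHF8. Zfp711 had 74.4, 86.5, 91.7, 109 and 110 CPM in Ino80WT 1 to 5 and 101, 114, 147, 120 and 114 CPM in Ino80cKO 1 to 5. The groups overlapped, with Ino80WT 4 and 5 within the Ino80cKO range, and it rose 1.27-fold (log2 fold change 0.34 ± 0.12, adjusted p = 0.0364). Its change equalled the median of 0.34 over 599 X-linked genes tested, 296 of which were higher and 1 lower. The call was lost without Ino80WT 1, 2 or 3 and without Ino80cKO 2, 3 or 4 (adjusted p 0.0512 to 0.0807), as it was on leaving out Ino80WT 1 and 2 together.

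The next genes act with other chromatin complexes. Zfp644, a partner of the H3K9 methyltransferases G9a and GLP, had 161 ± 22.3 and 165 ± 10.4 CPM (log2 fold change 0.03 ± 0.10, adjusted p = 0.824). Zfp687, of a complex with ZMYND8, had 124, 138, 148, 153 and 142 CPM in Ino80WT 1 to 5 and 135, 136, 145, 149 and 138 CPM in Ino80cKO 1 to 5. Its groups covered the same range (log2 fold change -0.00 ± 0.07, adjusted p = 0.961), and per kilobase of exon it was at 23.7 CPM in Ino80WT and 23.6 CPM in Ino80cKO. Zfp827, known to recruit the NuRD complex to telomeres, had 24.1 ± 2.3 and 26.2 ± 1.8 CPM (log2 fold change 0.12 ± 0.09, adjusted p = 0.284). Zfp652, a transcriptional repressor, rose from 36 ± 3.5 to 41.7 ± 1.78 CPM (1.16-fold, log2 fold change 0.21 ± 0.08, adjusted p = 0.0448), a call lost in 9 alternatives, among them without Ino80WT 2 or 5 and without Ino80cKO 1, 2, 3, 4 or 5 (adjusted p 0.0605 to 0.0817).

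Of the paralogs Zfp608 and Zfp609, the former passed the test. Zfp608 had 36.7, 59.2, 71.3, 45.5 and 57 CPM in Ino80WT 1 to 5 and 32.7, 32.3, 33.3, 38.5 and 37.3 CPM in Ino80cKO 1 to 5, and it fell 1.55-fold (log2 fold change -0.63 ± 0.15, adjusted p = 0.00474), although Ino80WT 1 lay within the Ino80cKO range. Zfp609, which binds the cohesin loader NIPBL, had 119, 184, 181, 194 and 173 CPM in Ino80WT 1 to 5 and 160, 175, 187, 188 and 167 CPM in Ino80cKO 1 to 5, and it did not pass (log2 fold change 0.04 ± 0.12, adjusted p = 0.78). Whether the paralogs' changes differ from each other was not tested.

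Of the remaining members with a known role, Zfp653, which represses steroidogenic gene activation, fell from 51 ± 4.98 to 41.7 ± 3.01 CPM (1.22-fold, log2 fold change -0.29 ± 0.08, adjusted p = 0.013), a call lost under library totals and without Ino80WT 1 and 2. Zfp800, needed for pancreas development, fell 1.27-fold (log2 fold change -0.34 ± 0.13, adjusted p = 0.0443), a call lost in 12 alternatives, among them without Ino80WT 3, 4 or 5 and without Ino80cKO 1, 2, 3 or 4 (adjusted p 0.0685 to 0.116). Zfp622, a maturation factor of the large ribosomal subunit, had 59.8 ± 7.81 and 61.2 ± 7.48 CPM (log2 fold change 0.03 ± 0.11, adjusted p = 0.809). Zfp668, linked to DNA repair and p53, had 13.3 ± 1.55 and 16.1 ± 1.62 CPM and missed the threshold (log2 fold change 0.27 ± 0.11, adjusted p = 0.054), which it passed in 7 alternatives, among them without Ino80WT 2 and without Ino80cKO 1 (adjusted p 0.0253 to 0.0258). Zfp692 had 12.1 ± 1.78 and 10.1 ± 1.11 CPM (log2 fold change -0.25 ± 0.12, adjusted p = 0.105).

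Low counts kept 8 of the 146 genes out of the test, with totals of 1 to 50 counts over the 10 libraries. Zfp750, a regulator of epidermal differentiation, had 18 counts in Ino80WT and 32 in Ino80cKO, Zfp648 had 4 and 14, and Zfp804a, a gene of the brain, had 2 and 9. Zfp616, Zfp663, Zfp735, Zfp804b and Zfp957 had 1 to 12 counts each over all libraries.

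Transcripts of Trim28, Setdb1, the HP1 genes and a wider set of silencing genes, among them members of the HUSH silencing complex, were counted as well. The list is wider than the path from the KRAB box through TRIM28 described above. Of 25 such genes listed, 12 fell, 1 rose and 12 did not pass, with a median log2 fold change of -0.14. Over all genes 27.6% fell, 18.3% rose and the median was 0.02. Every gene on the list averaged above 30 CPM in each group. At 30 CPM or more, 36.3% of all tested genes fell and 18.8% rose, against 48% and 4% of the list. The called share at that level was 55.1%, against 52% of the list, and the median change was -0.07. Whether the list differs from genes of its level was not tested. Trim28, the scaffold itself, had 477, 504, 608, 443 and 487 CPM in Ino80WT 1 to 5 and 394, 372, 321, 417 and 438 CPM in Ino80cKO 1 to 5. All Ino80cKO libraries were below all Ino80WT libraries (1.3-fold lower, log2 fold change -0.37 ± 0.10, adjusted p = 0.011). Trim28 was named after its values were seen. With library totals as the scaling 3 of the 25 were lower and 7 higher, where 2938 of all 15265 genes were lower and 5484 higher.

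Among those with the smallest adjusted p were Morc3, Hdac1, Mphosph8, Sumo2 and Uhrf1. Morc3, an ATPase that silences retroviral elements, had 119, 137, 159, 140 and 155 CPM in Ino80WT 1 to 5 and 89.9, 103, 94.2, 103 and 99.7 CPM in Ino80cKO 1 to 5. It fell 1.45-fold without overlap (log2 fold change -0.53 ± 0.08, adjusted p = 0.000367). Hdac1, the histone deacetylase of NuRD, fell 1.3-fold (log2 fold change -0.38 ± 0.07, adjusted p = 0.00103). Mphosph8, the reader subunit of the HUSH silencing complex, had 518, 340, 440, 340 and 418 CPM in Ino80WT 1 to 5 and 272, 263, 247, 262 and 321 CPM in Ino80cKO 1 to 5 and fell 1.5-fold (log2 fold change -0.59 ± 0.12, adjusted p = 0.00188), with Ino80WT 1 highest.

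Sumo2, a small protein that is attached to other proteins, fell from 372 ± 35.2 to 296 ± 14.6 CPM (1.26-fold, log2 fold change -0.33 ± 0.08, adjusted p = 0.00483). Uhrf1, which reads methylated DNA, fell 1.28-fold (log2 fold change -0.36 ± 0.09, adjusted p = 0.00642). The calls of Sumo2 and Uhrf1 were lost under library totals. Setdb1, which methylates H3K9, had 249 ± 22.3 and 233 ± 12.5 CPM and did not pass (log2 fold change -0.09 ± 0.08, adjusted p = 0.333). Of the HP1 genes, Cbx1 fell from 83.2 ± 6.55 to 69.5 ± 2.71 CPM without overlap (log2 fold change -0.26 ± 0.07, adjusted p = 0.0094), while Cbx3 and Cbx5 had log2 fold changes of 0.05 ± 0.08 and -0.04 ± 0.10 and did not pass. Pphln1, of the HUSH complex, was the single rise (1.13-fold, log2 fold change 0.18 ± 0.06, adjusted p = 0.018). Setdb1, Cbx1, Cbx3, Cbx5 and Pphln1 were named after their values were seen. The part of the cell makeup in these falls was not tested.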

How the data were processed

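Each library's deposited file holds raw counts of reads per gene, not normalized by the authors. TopHat2, HTSeq, DESeq2 and mm10 are named, per the submitters' processing notes, with no versions. The annotation and strand setting were not given in the sources used here. Beside 23420 gene rows, each file had 5 summary rows, which were left out. These held 35.5% to 44% of reads, and reads aligned to several places made up 18.4% to 26.3%.

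The test was edgeR 4.0.16 under R 4.3.3 (filterByExpr, minimum count 10 and minimum total 15, TMM factors, robust quasi-likelihood fit with genotype as the only term). Genes with Benjamini-Hochberg adjusted p below 0.05 over all 15265 tested were called. SE is the log2 fold change divided by the square root of F. The script was tested on simulated data. No libraries were duplicates (lowest chi-square per degree of freedom 9.4). Translations for the KRAB pattern and finger counts came from GENCODE M21 in place of the RefSeq proteins planned, and exon lengths likewise, which may differ from the authors' annotation.

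Genes, lists and tests were chosen with earlier results of these data known. Named genes were the 8 largest rises and 8 largest falls (called, average log2 CPM at least 1, no overlap), sex-linked members, members with a known role, the smallest adjusted p in each run, 6 corepressor genes (1 is not reported here) and the 3 highest levels per length. Zfp638 and Zfp683, listed for their roles, were not analysed here. Of 8 endothelial markers none was called. Of 6 tested Leydig markers 4 were higher, of 2 tested erythroid markers none was called, of 17 spermatogonial markers 4 were higher and 2 lower, and of 13 early prophase markers 1 was higher and 6 lower. Alternatives were DESeq2 1.42.0, RLE factors, library totals, no filter, a minimum count of 30, a replicate block, leaving out each library, and leaving out Ino80WT 1 and 2, which had most Rn45s reads (7.08% and 4.66% of gene counts).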

Additional observations from a re-analysis of the deposited data

Results flagged for a closer look

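For 6 of 94 groups of 5 libraries examined (6.38%), 1 library was flagged as standing apart from the rest, by Dixon's limit of 0.71 of the range. Chance alone gives about 1 in 20. For Zfp882 the values shown do not reach that limit. Zfp609 had 119 CPM in Ino80WT 1, against 173 to 194 CPM in the other Ino80WT libraries. Zfp639 had 42.3 CPM in Ino80cKO 3, against 46.7 to 47.5 CPM. Zfp668 had 13.2 CPM in Ino80cKO 1, against 16.5 to 17.3 CPM. Zfp784 had 5.71 CPM in Ino80cKO 1, against 4.35 to 4.59 CPM. Zfp882 had 13.1 CPM in Ino80cKO 3, against 11.3 to 11.9 CPM. Uhrf1 had 216 CPM in Ino80WT 3, against 166 to 176 CPM.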

How the results depend on the processing

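Of 47 named genes tested, 27 kept their side of the threshold in all 17 alternatives, and all called ones kept their direction. Genes not called could change sign: Zfp609 (0.04) went to -0.04 without Ino80WT 1 and -0.01 without Ino80WT 1 and 2, Zfp644 (0.03) to -0.02 and -0.04 in the same settings, Zfp622 (0.03) to -0.03 without Ino80WT 5 or Ino80cKO 5, Zfp932 (-0.10) to 0.07 with library totals, and Zfp687, at -0.00, lay between -0.03 and 0.17. With library totals 49 Zfp genes were higher and 11 lower (25 and 27 with TMM), their median log2 fold change was 0.22, and 7 corepressor genes were higher and 3 lower. Corepressor genes higher numbered 2 with DESeq2 and with RLE factors. Leaving out 1 library gave 14 to 26 Zfp genes higher and 17 to 28 lower, and 0 to 2 corepressor genes higher. Without Ino80WT 1 and 2 there were 22 higher and 22 lower. Labels give replicate numbers, but nothing ties equal numbers to a litter or day. Deviations from group means correlated at 0.196, 0.11, -0.47, -0.172 and -0.175 for numbers 1 to 5, and 2 of 10 libraries correlated best with their own number. These values show no consistent pairing by number, but they cannot exclude a shared litter or day. With the replicate block 13 Zfp genes were higher and 18 lower, and 0 corepressor genes were higher. With no filter 25 were higher and 19 lower. Of 49 tested Zfp genes under 10 CPM 24.5% were called, against 30.8% of all genes at that level. Of 40 at 30 CPM or more 57.5% were called, against 55.1%. The part of depth was not tested.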
